A study of Mus musculus with 10 samples.

Results

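Genes of the neuronal cytoskeleton and of neurite growth were followed in sorted cells of the embryonic mouse cortex after knockdown of Chd8, which codes for a chromatin remodelling enzyme. The genes were picked by symbol, with earlier results of these data known. They are Dcx, Tubb3, Map2, Mapt, Stmn2, Stmn3, Gap43, Nefl, Nefm and Kif5c. All 10 have a row among the 23235 genes of each of the 2 deposited tables. Map2 is listed there under its older symbol Mtap2. All 10 passed the filter on low values, a mean of at least 1 FPKM (fragments scaled to transcript length and library depth) over the libraries of a table.

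Radial glia of the cortex were electroporated in utero at embryonic day 13 with GFP and either a Chd8 shRNA or a control shRNA. GFP-positive cells were sorted at embryonic day 15 from pools of 3 to 5 embryos, and each pool gave 1 library. The new set holds 3 Chd8 knockdown and 3 control libraries (replicates 10, 11 and 12), and its table is named for shRNA1. The first set holds 2 Chd8 knockdown and 2 control libraries (replicates 1 and 2), and its table is named for shRNA2. The labels give no strain, genotype or sex of the embryos. The sort was meant to keep only cells that took up plasmid and their GFP-positive progeny, but markers of other cells were also found, as given below. The shRNA, the batch and the table thus change at once from set to set, and their parts cannot be told apart.

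Newborn cortical neurons leave the ventricular zone, migrate outwards and extend an axon and dendrites. Their shape rests on microtubules built from tubulin dimers, which doublecortin and other microtubule-associated proteins stabilise and stathmins destabilise, and kinesins carry cargo along them. Neurofilaments are the intermediate filaments of neurons and accumulate in axons as they mature, and GAP-43 sits under the membrane of the growth cone. Radial glia and other dividing progenitors express most of these genes weakly or not at all, so that in a mixed sort they serve as markers of the neurons. In such bulk samples fewer neurons and less RNA of a gene per neuron cannot be told apart.

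Chd8 was at 1.95 ± 0.124 FPKM in new-set knockdown libraries and 3.64 ± 0.366 FPKM in new-set controls (SD, n = 3 each), and at 8.89 ± 0.479 and 13.1 ± 1.02 FPKM in first-set knockdown and control libraries (n = 2 each). The groups did not overlap in either set. Chd8 fell by limma in the new set (log2 fold change of FPKM + 1 −0.65, SE 0.117, adjusted p = 0.0213), a call lost without any one library other than control replicate 11 (adjusted p 0.0530 to 0.0829), and it was not called in the first (−0.51, SE 0.233, adjusted p = 0.152, or −0.18 and 0.549 with a trend on transcript length removed). Absolute depth is unknown. Relative depth was read from the size of the lowest values. New-set libraries had 0.966 to 1.40 times the depth of their control replicate 10, and both first-set knockdown libraries had 0.525 times the depth of first-set control replicate 1. Olfactory receptor genes, which cortex does not use, averaged 1.39 and 0.993 FPKM in the first-set knockdown libraries and at most 0.0217 FPKM in the other 8 libraries. Summed radial glia markers reached at least 1018 FPKM in every library.

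Levels of the 10 genes, in FPKM, kept much of their order. Tubb3 was the highest of them in all 10 libraries, Nefm ranked 9 and Nefl ranked 10 in all 10. In the new set the order below Tubb3 was Stmn3, Stmn2, then Gap43 and Map2, which changed places between libraries, then Dcx, Kif5c and Mapt. In the first-set controls Gap43 and Stmn2 changed places above Stmn3, and Dcx and Mapt changed places below Map2. Tubb3 alone made up 40.7% to 43.2% of the summed FPKM of the 10 genes in new-set knockdown libraries and 40.8% to 44.4% in new-set controls. It made up 62.6% and 65.3% in first-set knockdown libraries and 66.2% and 57.1% in first-set controls.

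**Figure D1:**
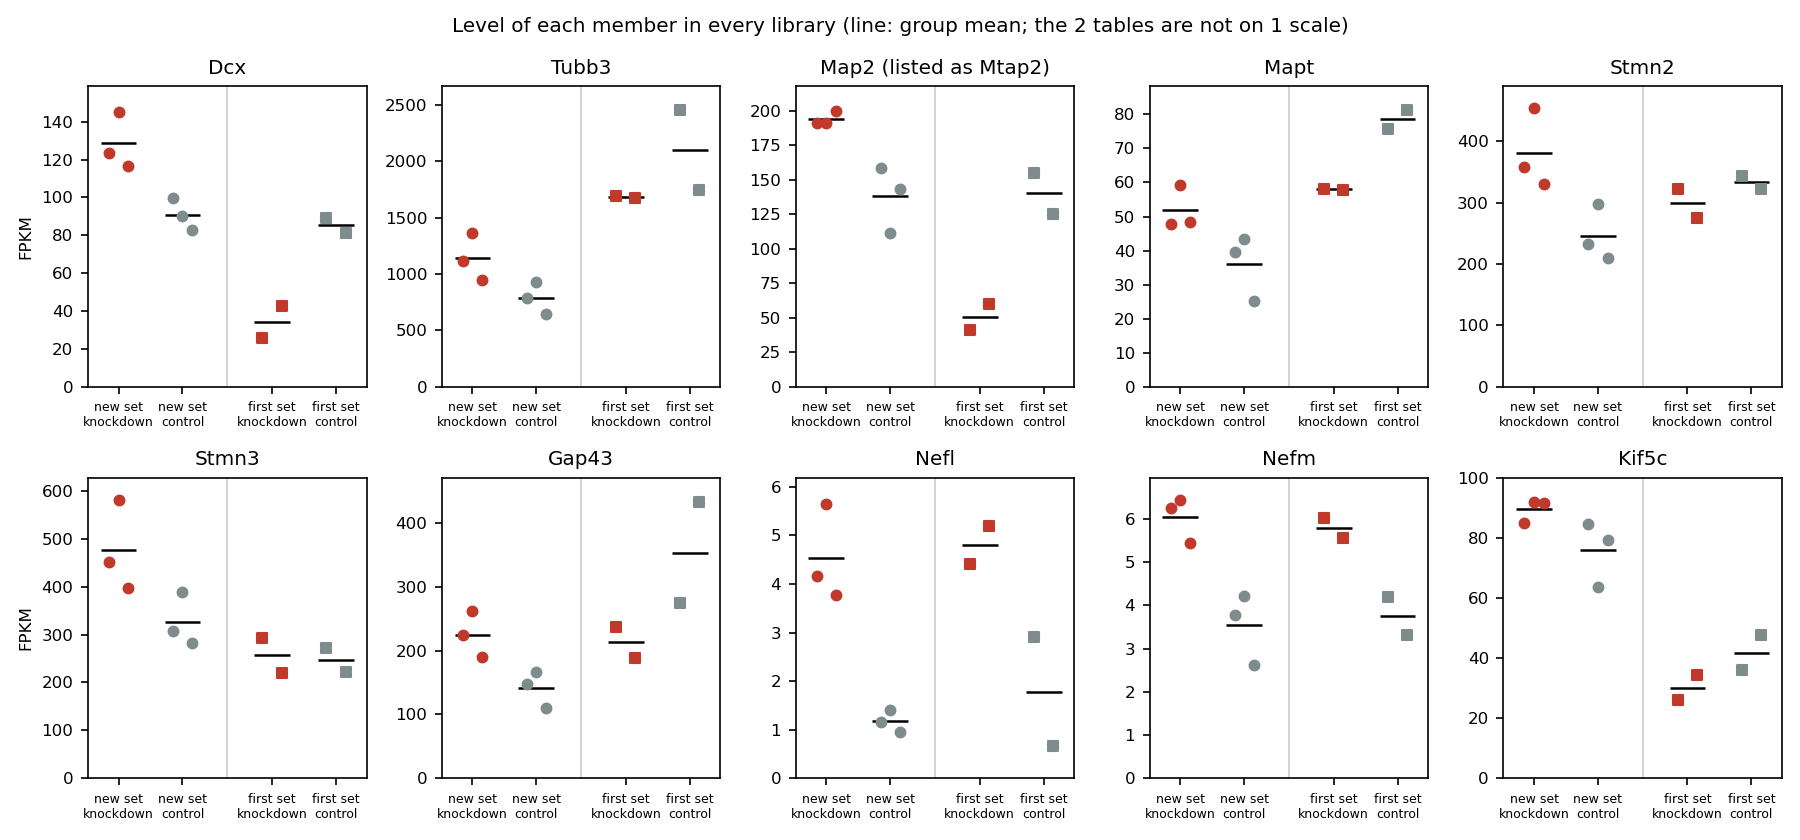
FPKM of the 10 genes in every library, with knockdown libraries in red and control libraries in grey, circles for the new set, squares for the first set and a line at each group mean. In the new set every knockdown library lies above every control library for all 10 genes, while in the first set Dcx and Map2 lie far below control and Nefl and Nefm above it.

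All 10 genes were higher with Chd8 knockdown in every new-set library than in any new-set control. Limma called 5 of them at an adjusted p under 0.05 (Dcx, Map2, Gap43, Nefl and Nefm), all 5 higher. Of the 11291 genes tested 8.99% were called, 3.84% higher and 5.15% lower. This fit leaves the pairing of the replicate numbers out. With the replicate number as a block, 9 of the 10 genes were called, all 9 higher, and 2452 of the 11291 genes tested. Knockdown libraries lay wholly above controls in 18.6% of all tested genes and wholly below in 17.1%. The median log2 fold change of the 10 genes was 0.54, against 0.02 over all tested genes. On that scale 8 of the 10 lay between 0.49 and 0.68, with Nefl far above them (1.34) and Kif5c below (0.25).

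The 10 genes went different ways in the first set. Dcx and Map2 fell to 40.0% and 35.998% of control and were the 2 called. Of the 12461 genes tested 23.8% were called, 13.2% higher and 10.7% lower. Knockdown libraries lay wholly below controls for 7 of the 10 genes and wholly above for Nefl and Nefm, and they overlapped for Stmn3. Over all tested genes these shares were 40.4% below and 27.4% above, so libraries that do not overlap were common there. The median log2 fold change of the 10 genes was −0.37, against −0.15 over all tested genes.

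**Figure D2:**
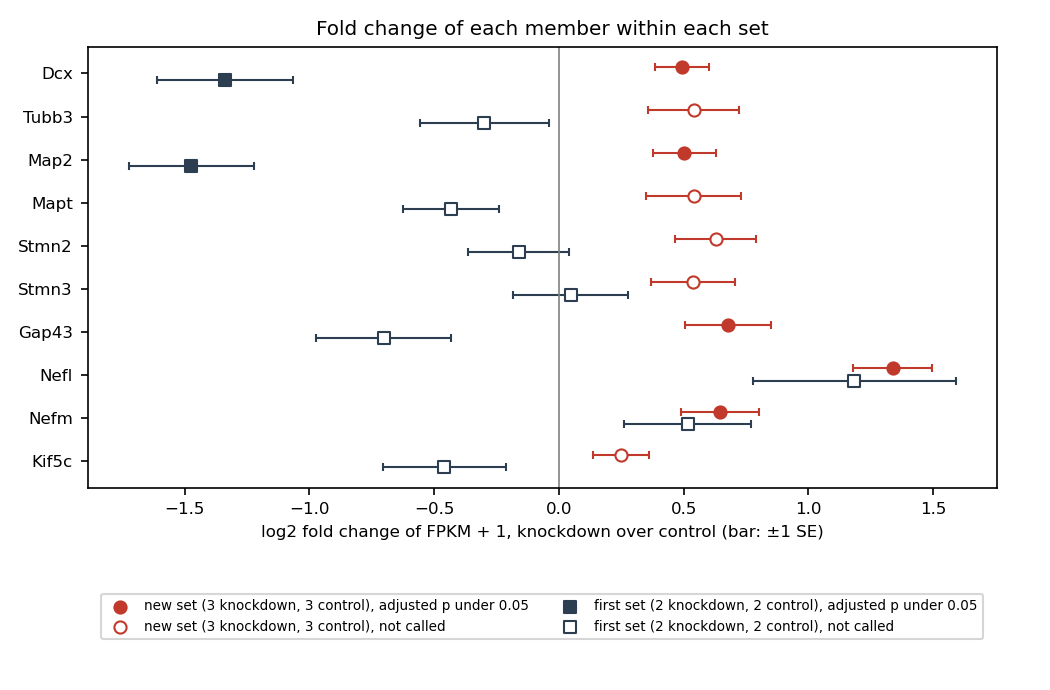
Log2 fold change of FPKM + 1, knockdown over control, with 1 SE, of each gene for new-set (red circles) and first-set libraries (dark squares), filled where limma's adjusted p is under 0.05. All 10 new-set values are above 0, from 0.25 to 1.34, and the first-set values run from −1.47 for Map2 to 1.18 for Nefl.

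Tubb3 codes for class III beta-tubulin, the tubulin isotype by which young neurons are commonly stained. It stood at 1119, 1367 and 949.5 FPKM in new-set knockdown replicates 10, 11 and 12, against 784, 931 and 646 FPKM in the controls of the same numbers. The lowest knockdown library lay just above the highest control. Its difference was 0.54 on the log2 scale (SE 0.183, limma adjusted p = 0.0965), and with the replicate number as a block it was called (adjusted p = 0.0179). First-set Tubb3 was at 1694 and 1671 FPKM in knockdown libraries, against 2449.9 and 1749 FPKM in controls (−0.30, SE 0.257, adjusted p = 0.419). Both knockdown libraries lay just below the lower control.

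Dcx codes for doublecortin, which binds microtubules in migrating neurons and whose loss disturbs cortical layering in humans. It was at 123, 145 and 117 FPKM in new-set knockdown libraries, against 99.7, 90.4 and 82.6 FPKM in controls (0.49, SE 0.110, limma adjusted p = 0.0354). Its first-set levels were 25.5 and 42.6 FPKM in knockdown libraries, against 89.3 and 81.1 FPKM in controls (−1.34, SE 0.272, adjusted p = 0.0147). Dcx thus rose in one set and fell in the other, with no overlap of the groups in either.

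Map2 codes for the microtubule-associated protein of dendrites and cell bodies. It rose in the new set, with 191, 191 and 199.5 FPKM in knockdown libraries, against 158, 112 and 143 FPKM in controls (0.50, SE 0.127, limma adjusted p = 0.0478). It fell in the first set, with 40.8 and 60.0 FPKM in knockdown libraries, against 155 and 125 FPKM in controls (−1.47, SE 0.250, adjusted p = 0.00736). Only 0.995% of the genes tested in the first set had a lower fold change. Across the 10 libraries Map2 and Dcx followed each other (Pearson correlation 0.96 of log2 values centred within each table, n = 10 libraries that share the knockdown and control groups).

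Mapt codes for tau, the counterpart of MAP2 in axons. It was at 47.9, 59.3 and 48.5 FPKM in new-set knockdown libraries, against 39.5, 43.5 and 25.3 FPKM in controls (0.54, SE 0.190, limma adjusted p = 0.106, and 0.0336 with the replicate block). First-set levels were 58.1 and 57.9 FPKM in knockdown libraries, against 75.8 and 81.3 FPKM in controls (−0.43, SE 0.192, adjusted p = 0.142). The groups did not overlap in either set, and control replicate 12 of the new set was well below the other controls.

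The promoters of Map2 and Dcx are shown because these 2 genes moved most alike across the libraries and were the 2 called in opposite directions in the sets. Each window runs 5′ to 3′ from 250 bases before to 50 after an annotated start (RefSeq, build GRCm38.p6), and capitals mark the letters GGGCGG or TATAAA on either strand. The windows are chr1:66175079-66175378, plus strand, for Map2 and chrX:143933170-143933469, minus strand, for the first of 2 starts listed for Dcx.
Map2: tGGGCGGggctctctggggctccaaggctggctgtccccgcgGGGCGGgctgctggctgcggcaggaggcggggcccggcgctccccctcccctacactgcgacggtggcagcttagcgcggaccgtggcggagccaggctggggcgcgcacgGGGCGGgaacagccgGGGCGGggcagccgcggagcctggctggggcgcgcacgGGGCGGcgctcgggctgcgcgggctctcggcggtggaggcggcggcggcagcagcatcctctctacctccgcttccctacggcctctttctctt
Dcx: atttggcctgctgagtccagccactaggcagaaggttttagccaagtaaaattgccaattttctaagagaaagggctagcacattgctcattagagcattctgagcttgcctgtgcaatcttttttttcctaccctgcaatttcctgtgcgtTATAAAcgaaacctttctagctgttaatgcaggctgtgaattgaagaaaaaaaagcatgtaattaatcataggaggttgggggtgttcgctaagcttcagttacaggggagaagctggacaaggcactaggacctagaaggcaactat
The windows differ in composition, with 77.7% G and C for Map2 and 43.0% for Dcx. Map2 holds GGGCGG 5 times and no TATAAA, and Dcx holds TATAAA once and no GGGCGG. Of the 32851 promoter windows of this length, 35.7% hold GGGCGG and 13.6% hold TATAAA on either strand. The letters CANNTG, the E-box bound by proneural factors, are in neither window, although 72.3% of all windows hold them. Windows were found for 5 of the 10 genes (Dcx, Tubb3, Map2, Stmn3 and Kif5c), and CANNTG is in those of Stmn3 and Kif5c.

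Stmn2 and Stmn3 code for neuronal stathmins, SCG10 and SCLIP, which bind tubulin dimers and promote microtubule turnover in growing neurites. Stmn2 was at 359, 455 and 331 FPKM in new-set knockdown libraries, against 233, 297 and 209 FPKM in controls (0.63, SE 0.162, limma adjusted p = 0.0504, and 0.0102 with the replicate block). Stmn3 was at 451, 579.7 and 398 FPKM in new-set knockdown libraries, against 308, 389.6 and 283 FPKM in controls (0.54, SE 0.169, adjusted p = 0.0814, and 0.0119 with the block). In both genes replicate 11 was the highest and replicate 12 the lowest library of each group.

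First-set Stmn2 was at 322 and 276 FPKM in knockdown libraries, against 344 and 323 FPKM in controls (−0.16, SE 0.202, limma adjusted p = 0.578). Stmn3 was at 292 and 220.4 FPKM in knockdown libraries, against 272 and 222 FPKM in controls (0.05, SE 0.231, adjusted p = 0.894). Both differences were smaller than their standard errors.

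Gap43 codes for growth-associated protein 43, a membrane-bound protein of growth cones that takes part in axon extension. It rose in the new set, with 225, 261 and 189 FPKM in knockdown libraries, against 148, 167 and 109.7 FPKM in controls (0.68, SE 0.172, limma adjusted p = 0.0478). First-set Gap43 was at 237 and 188 FPKM in knockdown libraries, against 275 and 433 FPKM in controls (−0.70, SE 0.271, adjusted p = 0.1001). The first-set controls differed from each other by more than the lower of them differed from the knockdown libraries.

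Nefl and Nefm code for the light and medium neurofilament subunits. They were the lowest of the 10 genes, and in each set they had the highest knockdown level as a percentage of control. Nefl rose in the new set, with 4.17, 5.65 and 3.77 FPKM in knockdown libraries, against 1.16, 1.40 and 0.956 FPKM in controls, which makes 386% of control (log2 fold change 1.34, SE 0.158, limma adjusted p = 0.0102). Of all genes tested in the new set 99.8% had a lower fold change. Nefm rose as well, with 6.24, 6.43 and 5.43 FPKM in knockdown libraries, against 3.79, 4.21 and 2.61 FPKM in controls (0.65, SE 0.156, adjusted p = 0.0429).

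First-set Nefl was at 4.41 and 5.20 FPKM in knockdown libraries, against 2.91 and 0.665 FPKM in controls (1.18, SE 0.407, limma adjusted p = 0.0738). The controls differed widely, and the Nefl fold change was 1.80 without control replicate 1 (adjusted p = 0.0394, called) and 0.57 without control replicate 2 (adjusted p = 0.345). Nefm was at 6.01 and 5.55 FPKM in knockdown libraries, against 4.195 and 3.32 FPKM in controls (0.52, SE 0.254, adjusted p = 0.177). The groups did not overlap for either gene. The mean of the silent olfactory receptor genes in these knockdown libraries, 1.39 and 0.993 FPKM, is not small beside such levels, and after it was subtracted from each library the Nefl fold change was 0.86 (adjusted p = 0.191) and that of Nefm 0.24 (adjusted p = 0.550). With both sets joined, Nefl (1.26, SE 0.210, adjusted p = 0.00210) and Nefm (0.58, SE 0.130, adjusted p = 0.00765) were called higher and Dcx (−0.42, adjusted p = 0.0344) and Map2 (−0.49, adjusted p = 0.0178) lower. The joined value is the mean of the fold changes of the new and first sets. These had opposite signs for Dcx (0.49 and −1.34) and Map2 (0.50 and −1.47), so neither gene fell in both sets. The joined Nefl and Nefm calls held under all 17 alternatives that gave a value. That of Dcx was lost under 8 of 18, among them the removal of a length trend (−0.26, adjusted p = 0.159) and the fit without first-set knockdown replicate 1 (−0.24, adjusted p = 0.118), and that of Map2 under 2 of 18, without first-set control replicate 1 (adjusted p = 0.0641) or knockdown replicate 1 (0.0690). With the replicate block Stmn2 (0.23, adjusted p = 0.0383) and Stmn3 (0.29, adjusted p = 0.0192) were also called higher over the joined sets. That fit called 3695 of the 10827 genes tested. In the joined fit that block also pairs the first-set libraries, where the check found no pairing. Limma called 29.9% of the 10827 genes tested in both tables, 9.37% higher and 20.5% lower.

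Kif5c codes for a neuronal kinesin-1 heavy chain, a motor that carries cargo towards the plus ends of axonal microtubules. Its values were 85.1, 92.1 and 91.8 FPKM in new-set knockdown libraries, against 84.5, 63.6 and 79.5 FPKM in controls (0.25, SE 0.113, limma adjusted p = 0.182, and 0.132 with the replicate block). The lowest knockdown library was above the highest control by less than 1 FPKM. First-set Kif5c was at 26.0 and 34.3 FPKM in knockdown libraries, against 36.04 and 47.7 FPKM in controls (−0.46, SE 0.246, adjusted p = 0.205).

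In the fit without the replicate block, the calls in the new set depended on single libraries, except that of Nefl. The Nefl call held under each of the 13 alternatives that gave a value. Single libraries were not left out of the fit with the block. Dcx, Map2, Gap43 and Nefm were not called without control replicate 10 or 12 or without any one of the knockdown replicates (limma adjusted p from 0.0521 to 0.164). Nor were they with no filter on low values (0.0605 to 0.0898). Their fold changes without 1 library ran from 0.36 (Map2) to 0.81 (Gap43). Without control replicate 11 limma called 9 of the 10 genes, and 1883 of the 11283 genes tested. Without any other 1 library it called 88 to 292 genes in all, against 1015 with every library. First-set Dcx was not called with no filter (0.0653) or without control replicate 1, control replicate 2 or knockdown replicate 1 (0.0743 to 0.0893), and Map2 not without control replicate 1 or knockdown replicate 1 (0.0658 and 0.0709).

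Ratios within a library do not depend on how libraries are scaled to each other. A trend on transcript length within a library, given below for the first set, stays in them. Taken as a percentage of Tubb3 FPKM in the same library, 7 of the other 9 genes overlapped between the groups of the new set, and Gap43 and Nefl did not. The share of all genes whose groups do not overlap on this measure was not computed, here or in the first set. Stmn3 was at 40.3% to 42.4% of Tubb3 in knockdown libraries and 39.3% to 43.7% in controls, Dcx at 10.6% to 12.3% and 9.71% to 12.8%. Gap43 was at 19.1% to 20.1% of Tubb3 in knockdown libraries and 17.0% to 18.8% in controls. Nefl stood apart, at 0.373%, 0.413% and 0.397% of Tubb3 in knockdown libraries 10, 11 and 12 and 0.148%, 0.1504% and 0.148% in controls.

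Dcx and Map2 were lower relative to Tubb3 in the first set. Dcx was at 1.51% and 2.55% of Tubb3 in knockdown libraries and 3.65% and 4.63% in controls. Map2 was at 2.41% and 3.59% of Tubb3 in knockdown libraries and 6.31% and 7.17% in controls. Stmn2, Mapt, Gap43 and Kif5c overlapped between the groups on this measure. Stmn3 was above control, at 17.2% and 13.2% of Tubb3 in knockdown libraries and 11.1% and 12.7% in controls. Nefl was at 0.260% and 0.311% of Tubb3 in knockdown libraries and 0.119% and 0.0380% in controls. Nefl was thus above control on this measure in both sets, while Nefm was above in the first and overlapped in the new set. The longest transcripts of Tubb3 and Stmn3 have 1868 and 1136 nucleotides, those of Dcx and Map2 9074 and 6258. With a trend on length removed, the first-set log2 fold changes were −0.42 for Tubb3 and −0.23 for Stmn3. Those of Dcx and Map2 were −1.01 and −1.16. Percentages of Tubb3 were not computed after that removal, so the part of length in them was not tested.

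**Figure D3:**
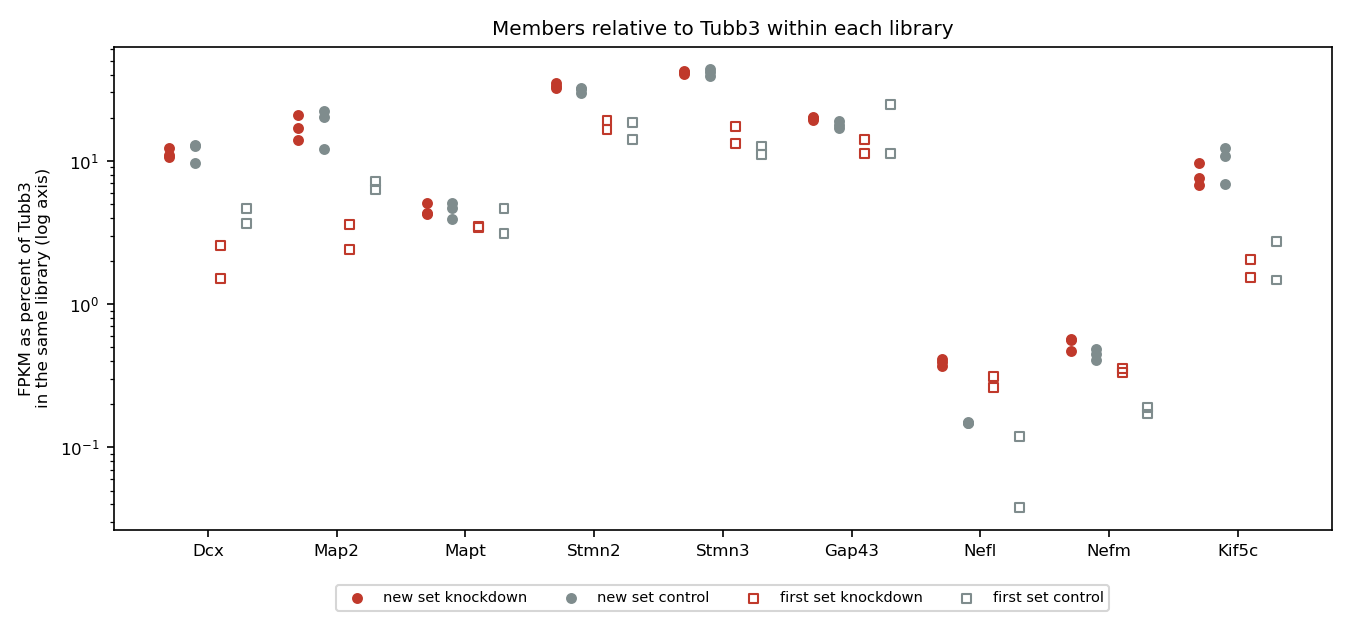
FPKM of each gene as a percentage of Tubb3 FPKM in the same library, on a log axis, with knockdown libraries in red left of control libraries in grey, filled circles for the new set and open squares for the first set. Nefl is above control in both sets, while Dcx and Map2 are below control in the first set and overlap with it in the new set.

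Whether a gene responded differently in the 2 sets was tested by the difference of the log2 fold changes in 1 fit over all 10 libraries. The difference, new set minus first set, was above 0 for all 10 genes. It was also above 0 for 63.4% of the 10827 genes tested, with a median of 0.23 over them. The difference was called for 6 of the 10 (Dcx, Map2, Mapt, Stmn2, Gap43 and Kif5c), against 32.5% of the genes tested, 22.5% above 0 and 9.98% below. The largest were Map2 (1.98, SE 0.262, limma adjusted p = 0.000768), Dcx (1.83, SE 0.269, adjusted p = 0.00116) and Gap43 (1.38, SE 0.323, adjusted p = 0.00866). These 3 held under all 18 alternatives tried. For Mapt (0.97, adjusted p = 0.0217), Stmn2 (0.79, adjusted p = 0.0337) and Kif5c (0.71, adjusted p = 0.0419) the call was lost under 3, 8 and 10 of the 18. For Tubb3 (0.84, SE 0.305, adjusted p = 0.0545) and Stmn3 (0.49, SE 0.284, adjusted p = 0.206) the difference was not called. With the replicate block it was called for both (adjusted p = 0.0168 for Tubb3 and 0.0319 for Stmn3), which made 8 of the 10 genes, and 3908 of the 10827 genes tested. That block also pairs the first-set libraries, where the check found no pairing. For Nefl (0.15, SE 0.419, adjusted p = 0.800) and Nefm (0.13, SE 0.260, adjusted p = 0.725) the difference was smaller than its standard error.

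Transcript length moved with the fold change in the first set. Over all genes tested there, the median log2 fold change was 0.20 for the 2831 genes whose longest transcript is under 2000 nucleotides and −0.36 for the 1699 genes over 6000, of which 72.9% were below 0 and 13.5% were called lower. In the new set the same medians were 0.08 and −0.01. Dcx, Kif5c and Map2, with longest transcripts of 9074, 6856 and 6258 nucleotides, are the 3 of the 10 genes in the longest class, and Stmn3, Gap43 and Tubb3 (1136, 1420 and 1868 nucleotides) are the 3 in the shortest. With a trend on length removed from each library, Dcx (−1.01, limma adjusted p = 0.0295) and Map2 (−1.16, adjusted p = 0.0159) were still called lower in the first set, while Kif5c moved to −0.15 and Mapt to −0.13. Gap43, one of the shortest, moved the other way, to −0.93 (adjusted p = 0.0488).

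**Figure D4:**
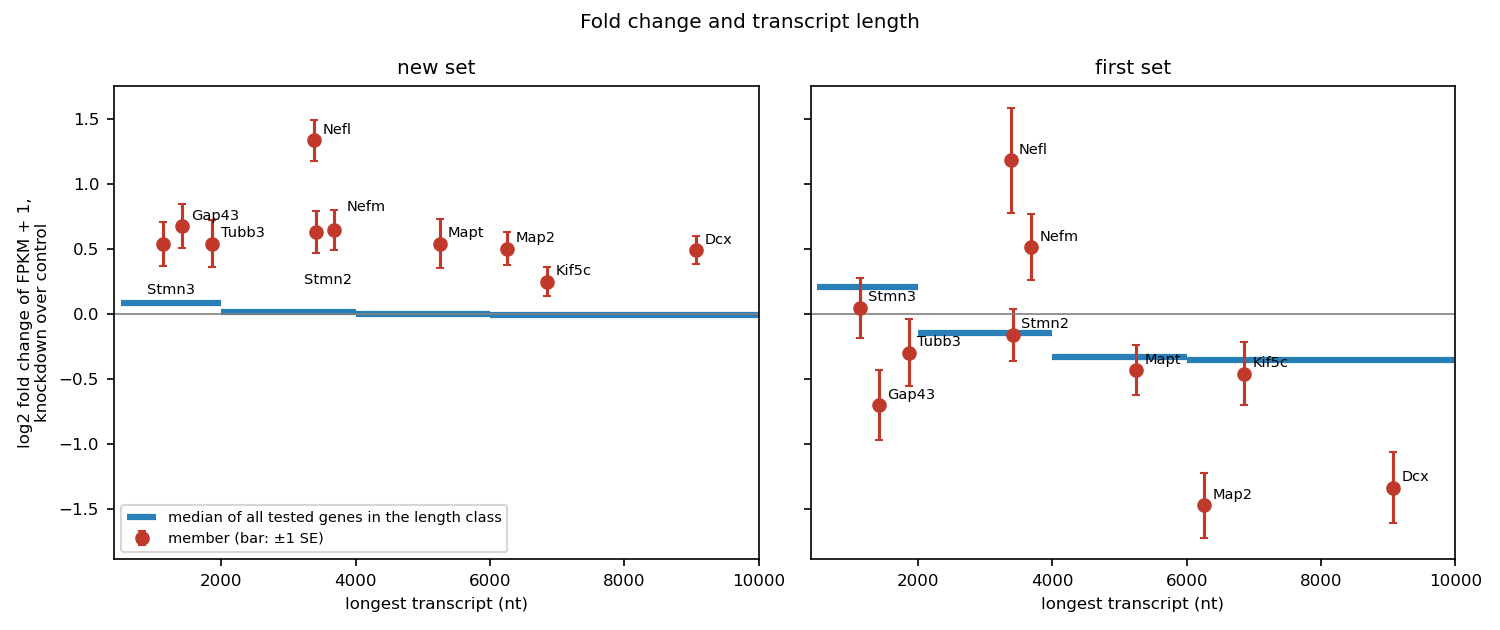
Log2 fold change of FPKM + 1, knockdown over control, with 1 SE, against the length of the longest annotated transcript for the 10 genes (red) in the new set (left) and the first set (right), with blue bars at the median of all tested genes of each length class. The class medians are near 0 in the new set and run from 0.20 to −0.36 in the first set, where Dcx and Map2 lie well below the median of their class.

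Other tubulin genes gave a mixed picture. Of 10 tested in the new set 2 rose, 1 fell and 7 did not pass (median 0.26), and of 11 in the first set 2 fell and 9 did not pass (median −0.54). Tubb4a rose in the new set (92.7 ± 6.18 FPKM with knockdown, 73.5 ± 2.06 FPKM in controls, SD, n = 3 each, limma adjusted p = 0.0431) and fell in the first (81.6 ± 11.4 and 137 ± 20.9 FPKM, n = 2 each, adjusted p = 0.0484), as Dcx and Map2 did. Tuba1c rose in the new set (503 ± 92.2 and 260 ± 81.0 FPKM, adjusted p = 0.0388), and Tubb6, a tubulin common outside neurons, fell (3.20 ± 0.920 and 6.63 ± 0.479 FPKM, adjusted p = 0.0226). Tubb5, a beta-tubulin abundant in progenitors as well as neurons, fell in the first set (882 ± 97.6 and 2097 ± 179 FPKM, adjusted p = 0.00981). Tubulin genes share long stretches of sequence, so reads may be split among them. Tuba1a, a main alpha-tubulin of young neurons, is listed at 0 in all 6 new-set libraries.

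Of 22 other microtubule-associated genes 5 rose and 1 fell in the new set (median 0.24), and 1 rose and 7 fell in the first set (median −0.35). The 5 that rose, named after their values were seen, were Stmn4, Dclk1, Map1lc3a, Mapre1 and Mapre2. Dclk1, the closest relative of Dcx, was at 56.3 ± 3.52 FPKM with knockdown and 36.5 ± 3.59 FPKM in controls of the new set (SD, n = 3 each, limma adjusted p = 0.0168). The end-binding genes Mapre1 and Mapre2 rose in the new set (0.39 each, adjusted p = 0.0323 and 0.0267) and fell in the first (−0.89 and −1.19, adjusted p = 0.0194 and 0.0140). Map1b, a large microtubule-associated protein of growing axons, fell in the first set (272 ± 83.0 and 737 ± 99.5 FPKM, n = 2 each, adjusted p = 0.00978), and in the new set its fold change was 0.38 (adjusted p = 0.123). Nde1, a dynein partner of dividing progenitors, fell in both sets (−0.56 and −1.18, adjusted p = 0.0180 and 0.0174). Its relative Ndel1 rose in the first set (0.96, adjusted p = 0.0328).

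Of 26 other growth cone and neurite growth genes tested in the new set 4 rose and the others did not pass (median 0.24), and of 25 in the first set 9 fell and the others did not pass (median −0.59). The 4 were Dpysl2 (CRMP2, which binds tubulin and promotes axon growth), the adhesion molecule Ncam1, the membrane protein Gpm6a and Gprin3. Ncam1 was at 103 ± 18.4 FPKM with knockdown and 67.3 ± 7.24 FPKM in controls of the new set (SD, n = 3 each, limma adjusted p = 0.0386). First-set Ncam1 was at 350.1 ± 41.5 and 825 ± 12.02 FPKM (n = 2 each, adjusted p = 0.00701). Dpysl2 likewise rose in the new set (0.41, adjusted p = 0.0203) and fell in the first (−1.79, adjusted p = 0.00369), and the difference between the sets was called for both genes (adjusted p = 9.58e-05 for Dpysl2 and 0.000543 for Ncam1). Marcks, Ncan and Rufy3 also fell in the first set.

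Of 20 other axonal transport genes 2 rose in the new set, Kifap3 and Kif3a, which code for parts of the kinesin-2 motor. Kifap3 was at 57.3 ± 4.58 FPKM with knockdown and 34.6 ± 1.87 FPKM in controls (SD, n = 3 each, limma adjusted p = 0.0103). Klc1 rose and Bicd2 and Dync1i2 fell in the first set. The list's median log2 fold change was 0.21 for the new set, against −0.48 for the first. The other kinesin-1 heavy chains Kif5a and Kif5b were called in neither set.

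Of 17 actin regulators 1 rose in the new set (Pfn2) and 2 fell in the first (Wasf1 and Abi2). Over all tested genes 3.84% were called higher in the new set and 10.7% lower in the first. Of 10 neuronal RNA-binding proteins 1 rose in the new set (Rbfox2) and 3 fell in the first (Elavl2, Elavl4 and Rbfox1). Of 3 other intermediate filament genes tested, Ina, Nes and Vim, limma called 0 in either set at an adjusted p under 0.05, and 1 (Nes, lower in the new set) at an unadjusted p under 0.05. Ina, alpha-internexin, which assembles with the neurofilament subunits in young neurons, was at 112 FPKM with knockdown and 107 FPKM in controls of the new set, far above Nefl and Nefm, and its fold change was 0.08 (adjusted p = 0.830). Nefh, the heavy subunit, averaged 0.151 FPKM with knockdown and 0.0532 FPKM in controls of the new set, under the filter.

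Limma called 13.2% of all tested genes higher and 10.7% lower in the first set, and 5.15% lower in the new set. Several markers of progenitors were lower with knockdown in the new set. Of 12 radial glia markers 6 fell there, among them Hes5, a Notch effector (24.9 ± 3.23 FPKM with knockdown and 44.1 ± 2.07 FPKM in controls, SD, n = 3 each, limma adjusted p = 0.0105). Pax6, a transcription factor of radial glia, fell in both sets (−0.42 and −1.02, adjusted p = 0.0484 and 0.0342). The 12 markers' summed level was 1018 to 1576 FPKM in knockdown libraries and 1239 to 1574 FPKM in controls. Of 8 intermediate progenitor markers 3 fell in the new set, with sums of 608 to 673 FPKM in knockdown libraries and 885 to 1042 FPKM in controls. Of 12 proliferation genes 3 fell in the new set. Among first-set libraries 8 of them fell, with sums of 371 to 399 FPKM in knockdown libraries and 659.6 to 754 FPKM in controls. First-set calls were 2 lower among radial glia markers and 2 higher and 2 lower among intermediate progenitor markers. Hes6 was lower in the new set (−0.56, adjusted p = 0.0200) and higher in the first (1.95, adjusted p = 0.00599). None of these markers is listed at 0 throughout a group. Their part in the results for the 10 genes was not tested.

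Markers of cells from outside the electroporated lineage were mostly low. The shares called over all tested genes were 5.15% lower in the new set and 13.2% higher in the first. Interneuron markers summed to 12.8 to 16.6 FPKM in new-set knockdown libraries and 20.3 to 31.0 FPKM in controls over 10 genes, of which 4 of 5 tested fell. In the first set they summed to 20.6 to 54.9 FPKM with knockdown and 25.5 to 55.8 FPKM in controls, and 0 of 8 tested were called. Cajal-Retzius markers summed to 7.92 to 11.4 FPKM in new-set knockdown libraries and 13.7 to 21.0 FPKM in controls over 7 genes, and 2 of 3 tested fell. Their first-set sums were 4.98 to 6.03 FPKM with knockdown and 2.84 to 9.26 FPKM in controls, and 0 of 2 tested were called. Interneurons and Cajal-Retzius cells also express many of the 10 genes. Erythroid markers summed to 23.6 to 115 FPKM in new-set knockdown libraries and 149.8 to 281 FPKM in controls, and 2 of 5 tested fell. The erythroid sums of the first set were 1.41 to 44.0 FPKM with knockdown and 16.7 to 19.0 FPKM in controls, and 0 of 2 tested were called. Microglia markers summed to 13.5 to 23.7 FPKM in first-set knockdown libraries and 1.47 to 5.28 FPKM in first-set controls, and 4 of 6 tested rose. The sum is over 8 genes, and the olfactory receptor mean of 1.39 and 0.993 FPKM per gene in these knockdown libraries is not small beside it. In the new set the microglia sums were 1.66 to 6.62 FPKM with knockdown and 3.19 to 9.99 FPKM in controls, and 0 of 3 tested were called. Endothelial and pericyte markers summed to 12.2 to 16.8 FPKM in first-set knockdown libraries and 11.9 to 18.2 FPKM in first-set controls. At most 1 marker of a list was at 0 throughout a group (Slc32a1 in first-set knockdown libraries, Hbb-y in first-set controls). The part of these cells in the results was not tested.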

How the data were processed

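RNA was sequenced from GFP-positive cells sorted from 10 pools of embryonic cortex. Per the labels' protocols, an RNeasy Plus kit gave the RNA and a low-input Clontech kit the libraries. Tools named in the submitters' processing notes are TopHat2, Bowtie, Cufflinks 2.0.0 and Cuffdiff, with build mm9; for annotation and strand handling the sources used here give nothing. The authors deposited FPKM values, 1 column per library, in 2 tables made separately, so fold changes were taken within a table. Depth is unknown, so counting error cannot be given.

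Values were transformed to log2(FPKM + 1), which understates changes of low genes. Limma 3.58.1 (R 4.3.3; lmFit, then eBayes with intensity trend, two-sided) was run on genes averaging 1 FPKM or more in a table. Residual degrees of freedom were 4 for the new set, 2 for the first set and 6 for the joined fit. Benjamini-Hochberg adjustment covered all genes tested. The joined fit gave the mean and the difference of the sets' fold changes. The code was tested on simulated data. Each replicate is a pool of embryos.

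Libraries of the same number were checked for pairing by correlating their deviations from the group means across genes. In the new set the 3 pairs gave 0.122, 0.242 and 0.193, so the numbers were taken to pair the libraries. The first set gave −0.0285, so no pairing was seen there, yet the block in the joined fits pairs the libraries of both sets.

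The 10 genes and the wider lists were chosen with earlier results of these data known. From the wider lists, the rule took up to 4 genes by smallest joined p and all called genes where 5 or fewer were called; other named genes were chosen after their values were seen. Of 195 symbols looked up, 10 were matched through older symbols in RefSeq. Transcript lengths are those of the longest GENCODE M21 transcript, found for 99.0% and 98.7% of the genes tested in the new and first sets. Alternatives were a pseudocount of 0.1, no filter or a minimum of 5 FPKM, median-of-ratios rescaling, subtraction of the olfactory receptor mean, no trend, the replicate block, each library left out, and a length correction chosen after the data were seen.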

Additional observations from a re-analysis of the deposited data

Results flagged for a closer look

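For 6 of the 10 genes the log2 fold change differed between the new set and the first set by limma's test of the difference (adjusted p under 0.05). The share over the 10827 genes tested was 32.5%. The new-set minus first-set difference was 1.83 for Dcx, 1.98 for Map2, 0.97 for Mapt, 0.79 for Stmn2, 1.38 for Gap43 and 0.71 for Kif5c. For Dcx and Map2 the fold change was called in each set, higher in the new set and lower in the first. For Mapt, Stmn2, Gap43 and Kif5c the sign also differed between the sets, and of their fold changes within a set only that of Gap43 in the new set was called. Which of shRNA, batch or table goes with the difference cannot be told apart.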

How the results depend on the processing

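Limma called 1015 genes and 5 of the 10 members in the new set. With no filter on low values it called 470 genes, 370 of them shared with the 1015, and 1 member. With the replicate block it called 2452 genes, 1012 of them shared, and 9 members. No intensity trend left 3 members called, and a length correction gave 1703 genes. A minimum of 5 FPKM also left 3, Dcx, Map2 and Gap43. Nefl and Nefm lay under that minimum and were not tested with it. Leaving out 1 library gave 88 to 1883 genes and 1 to 9 members, and Chd8 fold changes of −0.70 to −0.59. In the first set (2971 genes, 2 members) a minimum of 5 FPKM gave 1602 genes, no filter 1 member, and leaving out 1 library 713 to 1247 genes and 0 to 2 members. No filter gave 5917 genes for the joined sets and 6345 for the difference between sets, against 3238 and 3520. Joined members called, 4 of 10, were 2 with a minimum of 5 FPKM, where Nefl and Nefm were not tested. They were 6 with the replicate block, 3 with the length correction and 2 to 4 without 1 library. All genes called in the joined fit were 2532 of 7438 with a minimum of 5 FPKM, 3695 of 10827 with the block and 3092 of 10719 with the length correction. Members with a called difference, 6 of 10, were 8 with the block, 7 with a minimum of 5 FPKM or background subtraction, 5 with median-of-ratios rescaling or the length correction and 3 to 6 without 1 library. All genes with a called difference were 3908 of 10827 with the block, 2823 of 7438 with a minimum of 5 FPKM and 4387 with background subtraction. They were 3354 with median-of-ratios rescaling, 3518 of 10719 with the length correction and 2546 to 4005 without 1 library.

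Signs turned under the length correction for Stmn2 (0.031) and Stmn3 (−0.23) in the first set, Kif5c joined (0.057) and the set differences of Nefl (−0.026) and Nefm (−0.084). They also turned for Gap43 joined under median-of-ratios rescaling (0.017) and for the Chd8 set difference under background subtraction (0.042). Leaving out 1 library gave −0.15 to 0.25 for first-set Stmn3; joined, −0.00066 to 0.24 for Tubb3, −0.061 to 0.13 for Mapt and −0.18 to 0.15 for Gap43; and, between sets, −0.46 to 0.77 for Nefl and −0.024 to 0.26 for Nefm. The cause was not tested. Of first-set calls 55.2% were higher, against 84.4% with no filter, 31.3% with a minimum of 5 FPKM and 32.4% after background subtraction, where the median of all genes was −0.40.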

Other observations

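The genes whose pattern was most like that of the 10 genes were Mpped1, Sucla2, Hs6st2, C77370 and Crmp1, the last a relative of Dpysl2 that takes part in axon guidance signalling. Their correlation with the mean scaled pattern of the 10 genes ran from 0.973 to 0.991 over the 10 libraries, after centring within each table, among 10817 genes. Mpped1 was at 344, 417 and 327 FPKM in new-set knockdown libraries, against 273, 263 and 209 FPKM in controls, and at 91.5 and 90.3 FPKM in first-set knockdown libraries, against 116 and 112 FPKM in controls.

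The 10 genes formed groups by pattern. Stmn2 and Stmn3 correlated at 0.94, Nefl and Nefm at 0.92 and Tubb3 and Stmn2 at 0.92 across the 10 libraries centred within each table, while Map2 and Nefm correlated at −0.19. These values describe libraries that share the groups compared.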
